A study of Mus musculus with 28 samples.

Results

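Rod photoreceptors of wild-type (WT) mouse retina were compared between postnatal day 2 (P2) and postnatal day 4 (P4), the first interval sampled in a series that followed rods to P10. The comparison used the 2 WT libraries of P2 and the 3 WT libraries of P4, 5 of the 28 libraries in all, and the genes on the autosomes, of which 41005 were in the count table and 17830 had enough counts to be tested. The WT mice carried TgNrlp-EGFP, a transgene in which the promoter of Nrl drives a green fluorescent protein, and the rd1 mice of the series carried the same transgene with Pde6b rd1/rd1. Retinas were dissociated with papain, and fluorescent cells were collected by a sort set for purity. The gate therefore took cells in which the Nrl promoter was already active, whatever their state of maturation, and the sources used here do not say how many animals or litters went into a library. Library preparation was strand-specific and from polyadenylated RNA.

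Rods are the cells that detect dim light, and in the mouse many of them are born around and after birth. The transcription factors OTX2 and CRX mark the photoreceptor lineage, NRL directs a precursor to the rod fate, and NR2E3, a target of NRL, acts with it to activate rod genes and to hold cone genes down. Absorbed light is relayed by the G protein transducin to a cyclic GMP phosphodiesterase, which closes a cyclic nucleotide-gated channel in the outer segment, the modified cilium where these proteins are stacked in discs.

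The core letters that CRX and OTX2 recognise are TAATCC. Part of the Maf recognition element, which NRL binds, reads TGCTGA. Both were searched on either strand. In the RefSeq promoters of build GRCm38.p6, each running from 250 bases before to 50 bases after the gene's start, the CRX core stood in 1846 of 25748 promoters (7.17%) and in 8 of the 15 matched promoters of phototransduction genes (53.3%). The Maf letters stood in 4883 promoters (19%) and in 5 of those 15 (33.3%). Matches of the 2 motifs cannot share a base, and a match describes the letters and not binding. The promoters of 3 genes whose levels are given below are printed 5′ to 3′ on the gene's strand, with the matches in capitals; the later match in Sag is the CRX core read from the other strand. They belong to Sag (chr1:87803430-87803729, plus strand), Cnga1 (chr5:72642703-72643002, minus strand) and Pde6b (chr5:108388123-108388422, plus strand), and they show 1 promoter with both motifs and 1 with each alone.
Sag: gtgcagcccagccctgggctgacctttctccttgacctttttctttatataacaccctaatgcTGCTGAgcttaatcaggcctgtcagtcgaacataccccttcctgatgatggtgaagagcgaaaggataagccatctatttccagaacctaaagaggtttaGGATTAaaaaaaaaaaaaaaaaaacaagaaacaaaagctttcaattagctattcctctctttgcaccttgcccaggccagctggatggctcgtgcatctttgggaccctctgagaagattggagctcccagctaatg
Cnga1: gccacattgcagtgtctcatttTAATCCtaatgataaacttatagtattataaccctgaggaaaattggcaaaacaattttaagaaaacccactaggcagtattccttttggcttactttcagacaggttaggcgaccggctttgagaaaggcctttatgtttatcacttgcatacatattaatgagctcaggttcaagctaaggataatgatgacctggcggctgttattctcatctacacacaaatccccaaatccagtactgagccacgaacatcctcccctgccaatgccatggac
Pde6b: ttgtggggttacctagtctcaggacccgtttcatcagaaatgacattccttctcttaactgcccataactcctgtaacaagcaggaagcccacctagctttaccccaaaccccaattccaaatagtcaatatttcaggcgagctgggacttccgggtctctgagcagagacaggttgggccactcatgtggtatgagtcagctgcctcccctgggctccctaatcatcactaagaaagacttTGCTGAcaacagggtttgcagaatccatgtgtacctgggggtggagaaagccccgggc

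Depth was 12258311 and 13323615 estimated counts in the P2 libraries and between 13091942 and 14130999 in the P4 libraries. Mitochondrial genes held 2.09% and 1.86% of the counts at P2 and 2.85%, 3.54% and 2.51% at P4. The 10 highest genes held 3.213% and 3.207% at P2 and 3.86%, 4.27% and 3.39% at P4. Both shares were higher in every P4 library, and their part in the results below was not tested. Values below are counts per 1000000 (CPM) unless a log2 fold change is named. Transcripts of the sorted lineage were high in all 5 libraries, with Nrl between 1575 and 2297 CPM and Nr2e3 between 1967 and 3258 CPM. Some single markers of other cell types were near 0. Grm6, the receptor of ON bipolar cells, was at most 0.635 CPM, and Rpe65 of the pigment epithelium was at most 0.141 CPM. Other markers of the same types were present, as the marker lists further on show. The bipolar cell list summed to 1943 to 2507 CPM over the 5 libraries and the pigment epithelium list to 19.4 to 34.7 CPM. Pde6b, the gene mutated in rd1, was between 488 and 936 CPM in the WT libraries and between 101 and 205 CPM in the rd1 libraries of the same ages, as the labels give them. Both Xist, which is expressed from the inactive X chromosome, and the Y-linked Ddx3y were detected in all 5 libraries, at 1023 to 3421 CPM and at 37.3 to 83.2 CPM. Genes of the sex chromosomes were kept out of the counts.

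No gene passed the test between P2 and P4. With edgeR's quasi-likelihood test and Benjamini-Hochberg adjustment over all genes tested, 0 of 17830 autosomal genes (0%) had an adjusted p under 0.05, and the smallest adjusted p was 1. At an unadjusted p under 0.05 there were 524 genes (2.94%), of which 287 were higher at P4 (1.61%) and 237 were lower (1.33%). DESeq2 called 1 gene, the pseudogene Gm11361, which had a count in 2 of the 5 libraries and at most 0.094 CPM, and limma-voom called 0; at an unadjusted p under 0.05 these tools gave 570 and 237 genes. The log2 fold change was positive in 9059 genes (50.8%) and negative in 8706 (48.8%), with a median of 0.0066.

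The fit also gave an interval for each gene. The 95% interval of the fold change lay inside a 2-fold change in either direction for 10003 of the 17830 genes (56.1%). Among the 12931 genes with a mean of at least 1 on the log2 CPM scale, it did so for 9812 (75.9%), and the median standard error of their log2 fold changes was 0.24. The P4 libraries stood wholly above the P2 libraries in 1659 genes (9.3%) and wholly below them in 1116 (6.26%). These 2 shares are the background for every count of non-overlapping libraries below, since with 2 libraries against 3 an exact permutation test of a single gene cannot go below p = 0.1.

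The P2 libraries differed from each other more than any other pair of the 5. Between them, 932 of the 12931 better expressed genes (7.21%) were at least 2-fold apart, on TMM-scaled CPM with 0.5 added. Pairs within P4 were at least 2-fold apart in 1.65% to 3.86% of these genes, and the 6 pairs of a P2 with a P4 library in 2.58% to 5.07%. On the first principal component of all libraries, which held 47.6% of the variance and ran from the youngest to the oldest ages, the P2 libraries stood at −56.5 and −50.0 and the P4 libraries at −42.0, −59.8 and −56.7. The P4 values thus enclosed the P2 values, whereas the 4 WT libraries of P6 lay between −29.2 and 0.81.

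**Figure D1:**
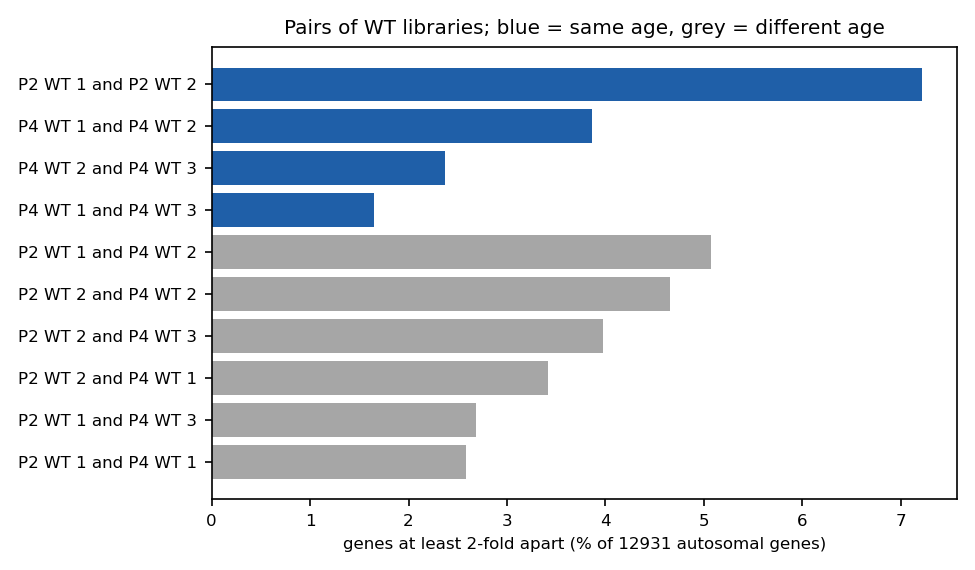
Share of the 12931 better expressed autosomal genes, in percent on the horizontal axis, that differed at least 2-fold between the libraries of each pair; blue bars are pairs of one age and grey bars pairs of different ages. The pair of P2 libraries has the longest bar (7.21%), and the bars of pairs across ages (2.58% to 5.07%) lie within the range of the pairs of one age (1.65% to 7.21%).

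The rod transcription factors were at similar levels at both ages. Nrl was at 1575 and 2193 CPM at P2 and at 2297, 1726 and 1700 CPM at P4. The P2 values nearly span the P4 values, and the log2 fold change was −0.01 ± 0.23 (SE; 95% interval −0.48 to 0.46). Nr2e3 was at 2116 and 2367 CPM at P2 and at 3258, 1967 and 2300 CPM at P4, with a log2 fold change of 0.14 ± 0.23 (95% interval −0.34 to 0.61). Crx was at 2591 and 2580 CPM at P2 and at 2736, 1879 and 2505 CPM at P4, a log2 fold change of −0.15 ± 0.21 (95% interval −0.59 to 0.29). The groups overlapped for all 3 genes, and each interval lay inside a 2-fold change.

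Of the 31 photoreceptor transcription factors tested, none passed the test, 16 had a positive and 15 a negative log2 fold change, and the median was 0.02. The median was 0.24 without the second P2 library and −0.04 without the first P4 library. The P4 libraries stood wholly apart from those of P2 in 5 of them, 2 higher (6.45%) and 3 lower (9.68%), beside 9.3% and 6.26% of all genes. Otx2, which acts upstream of Crx, was one of the 3, at 2168 and 2039 CPM at P2 and at 1675, 1591 and 1929 CPM at P4. All 3 P4 libraries were below both P2 libraries, and the log2 fold change was −0.30 ± 0.19 (unadjusted p = 0.117 in the edgeR fit). Prdm1, whose product holds down the bipolar program in photoreceptor precursors, was another, at 819 and 1006 CPM at P2 and at 682, 647 and 720 CPM at P4 (log2 fold change −0.45 ± 0.22, 95% interval −0.91 to 0.01). The lone member with an unadjusted p under 0.05 was Neurod2, a neuronal helix-loop-helix factor, at 3.18 and 6.64 CPM at P2 and at 8.83, 10.2 and 14.9 CPM at P4 (log2 fold change 1.17 ± 0.49). Neurod1, a related factor of photoreceptors, was at 822 and 1375 CPM at P2 and at 890.2, 820.5 and 996 CPM at P4, and its groups overlapped.

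**Figure D2:**
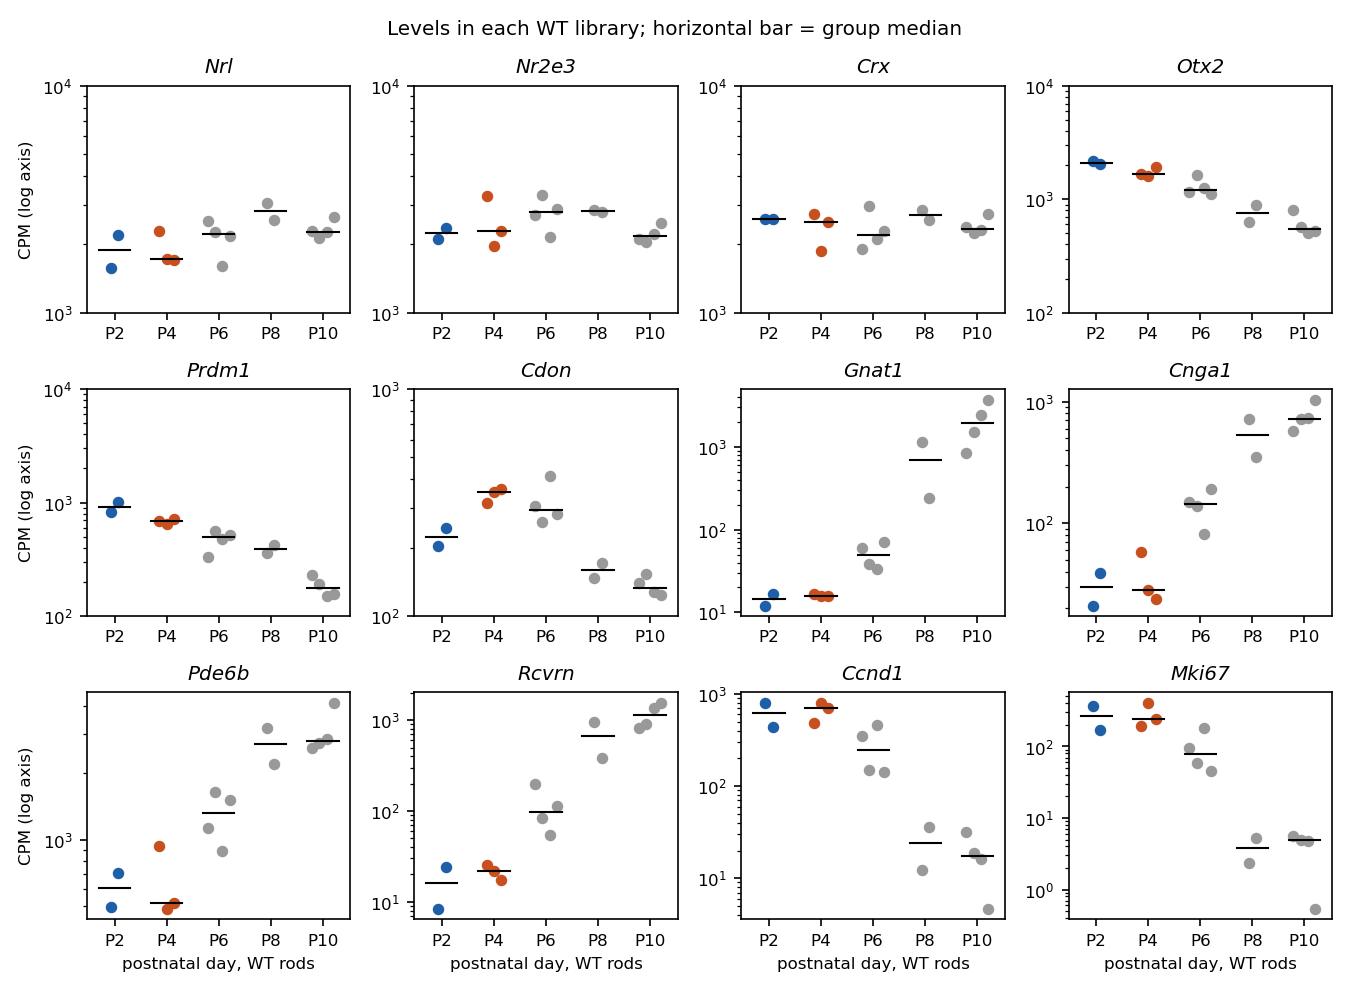
CPM in each WT library on log axes, against postnatal day, for 12 genes; blue points are P2, orange points P4, grey points the later ages, and bars are group medians. For Gnat1, Cnga1, Rcvrn and Pde6b the P2 and P4 points overlap (Gnat1 12.1 to 16.7 CPM), as they do for Mki67 and Ccnd1. Otx2, Prdm1 and Cdon are the panels in which P2 and P4 do not overlap. Prdm1 and Cdon were picked once the values were known.

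Genes of phototransduction were detected at both ages but did not differ between them beyond the spread of the libraries. Pde6b, the catalytic beta subunit of the rod phosphodiesterase, was at 495 and 709 CPM at P2 and at 936, 488 and 519 CPM at P4, with a log2 fold change of 0.08 ± 0.32 (95% interval −0.58 to 0.74). Cnga1, a subunit of the rod channel, was at 21.1 and 39.3 CPM at P2 and at 58.6, 28.2 and 23.8 CPM at P4 (log2 fold change 0.25 ± 0.40). In both genes the first P4 library was the highest of the 5 and the other P4 libraries lay closer to the lower than to the higher P2 value. Sag, which encodes the arrestin that ends the light response, was at 750.1 and 845 CPM at P2 and at 1219, 841 and 682 CPM at P4, with the highest and the lowest value both at P4. Rcvrn, the calcium sensor recoverin, was at 8.36 and 24.1 CPM at P2 and at 25.7, 21.9 and 17.5 CPM at P4. Gnat1, the alpha subunit of rod transducin, was at 12.1 and 16.6 CPM at P2 and at 16.7, 15.9 and 15.6 CPM at P4, and its 95% interval was −1.05 to 1.31.

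Across the 25 phototransduction genes tested, 20 had a positive log2 fold change and 5 a negative one, the median was 0.13, and none passed the test. None of the 25 had libraries that stood wholly apart by age, and 14 had an interval inside a 2-fold change. The summed level of the list was 5830 and 7645 CPM at P2 and 9705, 6345 and 5978 CPM at P4. The first P4 library was the highest and the other P4 libraries lay between the P2 libraries. The median of the list turned to −0.10 without the first P2 library and to −0.11 without the first P4 library, and was 0.57 without the second P2 library. Of the 25 genes of the outer segment list, 10 were positive and 15 negative, with a median of −0.10 that was 0.40 without the second P2 library, 0.01 without the second P4 library and −0.27 without the first P4 library. Prph2, which encodes the disc-rim protein peripherin, was at 767 and 1199 CPM at P2 and at 1415, 803 and 947 CPM at P4. Fscn2, an actin-bundling protein of photoreceptors, was the member with an unadjusted p under 0.05, at 2.69 and 3.54 CPM at P2 and at 6.39, 5.40 and 5.80 CPM at P4 (log2 fold change 0.89 ± 0.37).

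The cilium and the synapse were bounded more tightly. Of 51 genes of the cilium and its transport, 46 had a 95% interval inside a 2-fold change, 15 were positive and 36 negative, the median was −0.08 (0.02 without the second P2 library, −0.155 without the first P4 library) and none had an unadjusted p under 0.05. Spata7, a protein of the connecting cilium, was at 20.3 and 13.2 CPM at P2 and at 25.7, 21.7 and 20.5 CPM at P4. Of 36 genes of the ribbon synapse, 30 had an interval inside a 2-fold change, with a median of −0.03 that ran from −0.14 without the first P2 library to 0.08 without the second. Cacnb2, a subunit of the synaptic calcium channel of photoreceptors, was at 22.2 and 24.0 CPM at P2 and at 67.2, 23.4 and 30.1 CPM at P4, so that a single P4 library carried its log2 fold change of 0.78 ± 0.40.

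**Figure D3:**
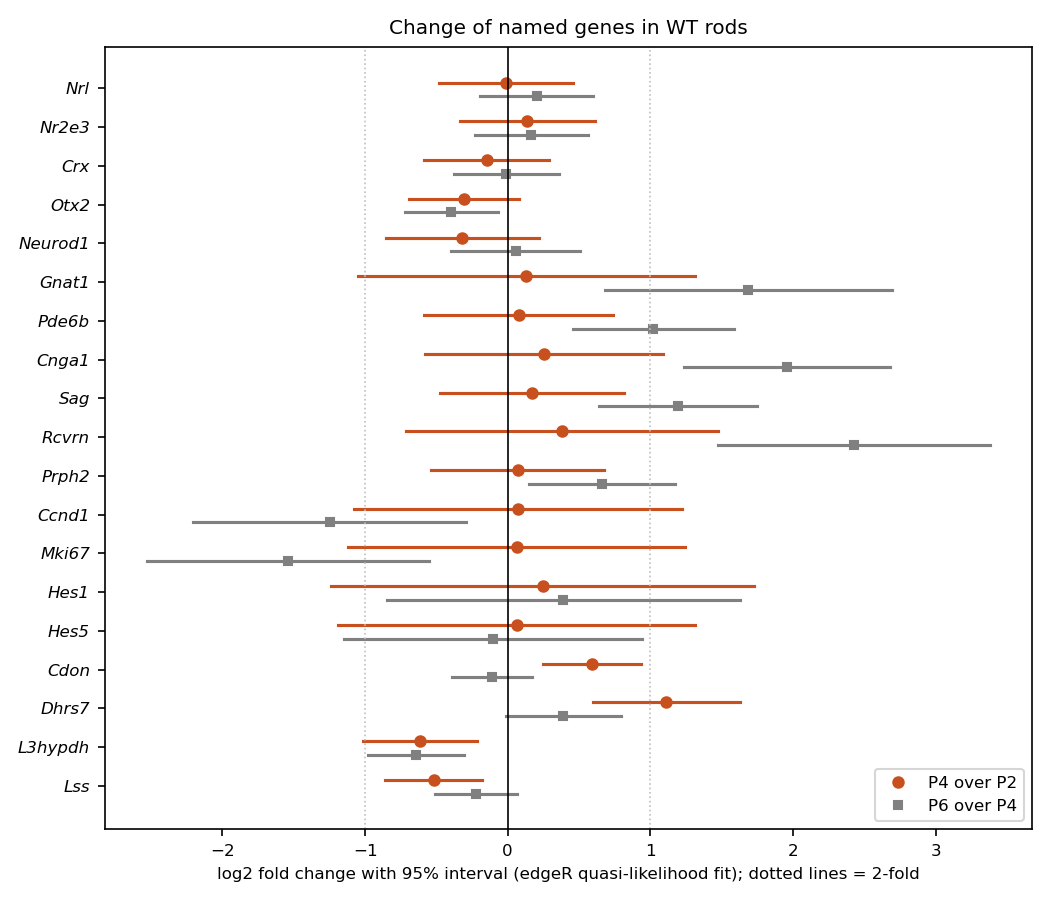
Log2 fold change and 95% interval of 19 genes in WT rods, for P4 over P2 (orange circles) and for P6 over P4 (grey squares), with dotted lines at a 2-fold change. For P4 over P2 the intervals of Nrl, Nr2e3 and Crx lie inside the dotted lines, that of Gnat1 runs from −1.05 to 1.31, and the last 4 genes, picked once the values were known, have intervals that do not cross 0.

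Cell cycle genes were present in the sorted cells at both ages, at levels that split the libraries of one age. Mki67, a marker of dividing cells, was at 365 and 168 CPM at P2 and at 193, 408 and 245 CPM at P4, and Ccnd1, the G1 cyclin D1, was at 803 and 443 CPM at P2 and at 480.4, 803 and 707 CPM at P4. In both genes the first P2 library and the second P4 library were high and the second P2 library was low. Of 66 cell cycle genes tested, none passed the test and none had an unadjusted p under 0.05, 52 were positive and 14 negative, and the median was 0.09. The median was −0.18 without the second P2 library, −0.21 without the second P4 library and 0.52 without the first P2 library, and −0.01 in the limma-voom fit. The summed level was 6396 and 4623 CPM at P2 and 4608, 7585 and 5275 CPM at P4. In bulk libraries such as these, fewer cells of a kind and less RNA per cell cannot be told apart.

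Genes of retinal progenitors were also present at both ages. Of 46 tested, 32 were positive and 14 negative, the median was 0.11, and none had an unadjusted p under 0.05. The median was −0.01 without the third P4 library, 0.06 without the first P2 library and 0.25 without the second. Hes1, an effector of Notch signalling, was at 17.1 and 9.995 CPM at P2 and at 8.54, 17.1 and 23.0 CPM at P4, and Hes5, another, was at 25.9 and 32.5 CPM at P2 and at 32.7, 15.6 and 44.8 CPM at P4. The P4 range enclosed both P2 values in each.

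The libraries of one age differed in the same way across whole gene lists. The second P2 library was above the first by a median of 0.74 on the log2 scale for phototransduction genes and below it by 0.71 for cell cycle genes, 1.46 for retinal ganglion cell genes, 1.14 for vessel and pericyte genes and 0.68 for amacrine and horizontal cell genes. Over all autosomal genes that median was −0.01. Within P4 the first library was high for phototransduction and low for the cell cycle, and the second the reverse. The part of this spread in the results on the age difference was not tested, beyond leaving out each library.

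**Figure D4:**
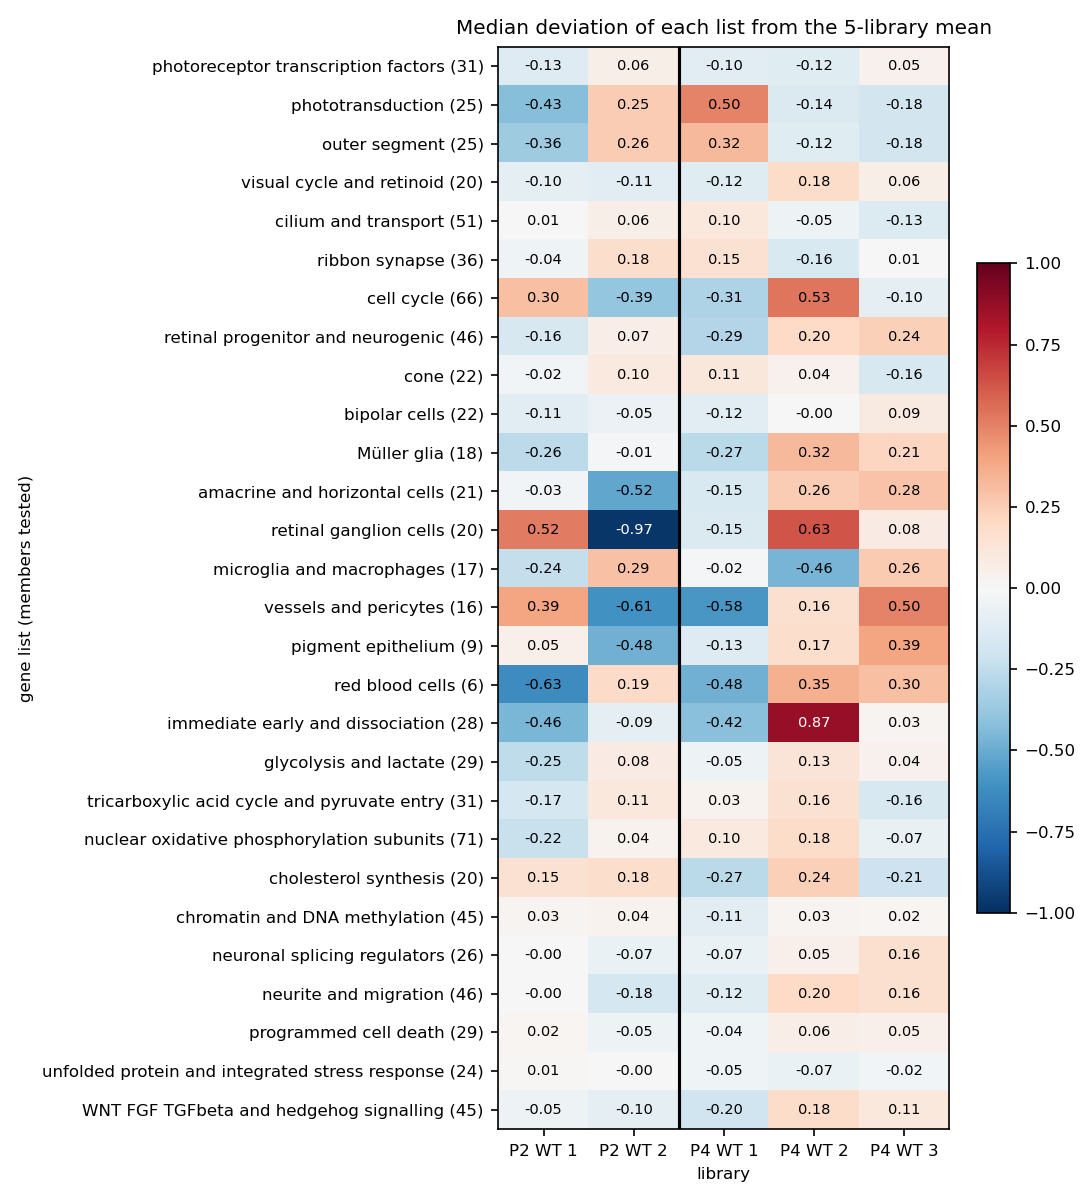
Median deviation of each gene list from its mean over the 5 libraries (log2 CPM, colour and printed value), with libraries as columns and lists as rows; the number of members tested is in parentheses. Within P2 the phototransduction row goes from −0.43 to 0.25 and the cell cycle row from 0.30 to −0.39, and the immediate early row stands out in the second P4 library (0.87).

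Markers of other retinal cells did not pass the test in any list. Of 22 cone genes, 7 were positive and 15 negative, with a median of −0.07 that was 0.02 without the second P2 library and −0.13 without the first P4 library. Opn1sw, the short-wavelength cone opsin, was at 166 and 88.8 CPM at P2 and at 125, 129 and 108 CPM at P4, all inside the P2 range. The 22 bipolar cell genes had a median of 0.17, and their summed level was 2507 and 2360 CPM at P2 and 1943 to 2325 CPM at P4, most of it Otx2, which photoreceptors share. Among 18 Müller glia genes 16 were positive and the median was 0.32, or 0.14 without the second P4 library and 0.15 without the first P2 library. The P4 libraries stood wholly above those of P2 in 4 of them (22.2%, beside 9.3% of all genes) and wholly below in 2 (11.1%, beside 6.26%). The member with an unadjusted p under 0.05 was Abca8a, a lipid transporter, which was lower at P4 and near 0 in 4 of the 5 libraries, at 1.72 and 0.0451 CPM at P2 and at 0, 0 and 0.0417 CPM at P4. Rlbp1, the retinaldehyde-binding protein of these glia, was at 45.4 and 88.6 CPM at P2 and at 106, 129 and 126 CPM at P4, and did not overlap (log2 fold change 0.81 ± 0.44, 95% interval −0.10 to 1.71). The Müller glia list summed to 1162 and 1397 CPM at P2 and to 1299, 1934 and 1695 CPM at P4.

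Genes of inner retinal neurons differed within each age. Of 21 amacrine and horizontal cell genes 16 were positive, with a median of 0.49 (0.315 without the second P4 library, 0.73 without the first P2 library), and of 20 retinal ganglion cell genes 17 were positive, with a median of 0.38. The ganglion cell list summed to 343 and 178 CPM at P2 and to 281, 449 and 341 CPM at P4, and its median was 1.35 without the first P2 library, 0.05 without the second P4 library and −0.25 without the second P2 library. Ebf1, a transcription factor in that list, was the lone member with an unadjusted p under 0.05, at 5.51 and 4.65 CPM at P2 and at 12.7, 8.07 and 11.3 CPM at P4. The lists of microglia and macrophages (17 genes tested, 23.7 to 40.1 CPM summed), vessels and pericytes (16 tested, 211 to 429 CPM), pigment epithelium (9 tested, 19.4 to 34.7 CPM) and red blood cells (6 tested, 14.7 to 21.1 CPM) had no tested member at 0 in all 5 libraries and none that passed the test. The sums include members with too few counts to be tested, and so cover 18, 16, 12 and 8 genes.

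Immediate early genes, which rise within minutes of a stimulus and can do so while tissue is dissociated, differed between the libraries of P4. Fos was at 17.0 and 6.39 CPM at P2 and at 5.02, 360 and 33.4 CPM at P4, and Fosb was at 2.49 and 0.682 CPM at P2 and at 0.647, 292 and 6.78 CPM at P4. The second P4 library was the highest of the 5 in both, and the first P4 library was below both P2 libraries. The list held 7 genes with an unadjusted p under 0.05, all positive, of 28 tested, against 1.61% of all genes, and 24 of the 28 were positive with a median of 0.60. Without the second P4 library the median was 0.30, and without the second P2 library it was 1.05. In 2 of the 28 (7.14%, beside 9.3% of all genes) the P4 libraries stood wholly above those of P2.

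Genes of energy metabolism did not pass the test. Of 71 nuclear genes for subunits of oxidative phosphorylation, 63 were positive and 8 negative, the median was 0.18 (0.07 to 0.31 when each of the 5 libraries was left out in turn), and 68 had an interval inside a 2-fold change. None had an unadjusted p under 0.05, and in 15 of the 71 (21.1%) the P4 libraries stood wholly above those of P2, beside 9.3% of all genes. Cox7c, a small subunit of cytochrome c oxidase, was at 42.9 and 50.7 CPM at P2 and at 58.3, 64.9 and 57.6 CPM at P4 (log2 fold change 0.34 ± 0.18). Atp5k, a subunit of ATP synthase, was at 26.9 and 34.1 CPM at P2 and at 40.9, 44.6 and 34.9 CPM at P4 (log2 fold change 0.36 ± 0.19). Both genes were picked with the values known, and both lay above the median of the list. The 29 genes of glycolysis and lactate had a median of 0.06, which was 0.32 without the second P2 library and −0.01 without the first. In 6 of them (20.7%, beside 9.3% of all genes) the P4 libraries stood wholly above those of P2, and in 0 wholly below. Gapdh, among those 6, was at 632 and 693 CPM at P2 and at 715, 995 and 715 CPM at P4. For 30 of 31 genes of the tricarboxylic acid cycle the interval lay inside a 2-fold change, around a median of 0.01 (−0.07 without the second P4 library, 0.15 without the second P2 library).

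All 20 genes of cholesterol synthesis had a negative log2 fold change, from −0.55 to −0.0015, with a median of −0.14, and 19 had an interval inside a 2-fold change. Lss, the lanosterol synthase, was at 113 and 86.5 CPM at P2 and at 62.6, 73.9 and 75.8 CPM at P4 (log2 fold change −0.52 ± 0.16, unadjusted p = 0.0045 in the edgeR fit). Dhcr7, which catalyses the last step of one branch of the pathway, was at 37.9 and 41.8 CPM at P2 and at 26.4, 32.6 and 24.2 CPM at P4 (log2 fold change −0.55 ± 0.19). These were the 2 members with an unadjusted p under 0.05, beside 1.33% of all genes lower at that level. They were also the 2 whose P4 libraries stood wholly below those of P2 (10%, beside 6.26% of all genes). The summed level was 1202 and 1168 CPM at P2 and 875, 1269 and 986 CPM at P4, so that the second P4 library was the highest of the 5, and without it the median was −0.39. Without the third P4 library the median was −0.09, and without the first it was −0.10.

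Genes of neurite growth and migration were positive in 38 of 46, with a median of 0.21 (0.36 without the first P2 library, 0.13 without the second). The P4 libraries stood wholly above those of P2 in 11 (23.9%, beside 9.3% of all genes) and wholly below in 1 (2.17%, beside 6.26%). Pcdh9, a protocadherin and the lone member with an unadjusted p under 0.05, was at 14.8 and 11.5 CPM at P2 and at 24.2, 32.2 and 28.7 CPM at P4 (log2 fold change 1.08 ± 0.33). Map2, a dendritic microtubule protein, was at 270.1 and 278 CPM at P2 and at 349, 345 and 333 CPM at P4. Like this list, the amacrine and horizontal cell list and the ganglion cell list were lowest in the second P2 library and above their means in the second and the third P4 libraries, and their part in the result was not tested. Of 45 chromatin genes 43 had an interval inside a 2-fold change. The chromatin member with an unadjusted p under 0.05 was Ezh1, a methyltransferase of Polycomb complex 2, at 122 and 101 CPM at P2 and at 89.5, 76.9 and 89.4 CPM at P4 (log2 fold change −0.41 ± 0.19). Cell death genes (29 tested) and genes of the unfolded protein and integrated stress responses (24 tested) had medians of 0.04 and −0.09. In 7 of the 29 cell death genes (24.1%, beside 9.3% of all genes) the P4 libraries stood wholly above those of P2, and in 2 (6.9%, beside 6.26%) wholly below. The member with an unadjusted p under 0.05 was Mlkl, which carries out necroptosis, at 0.469 and 0 CPM at P2 and at 1.001, 0.545 and 0.633 CPM at P4. The remaining lists, of neuronal splicing regulators, retinoid handling, and WNT, FGF, TGFbeta and hedgehog signalling, had medians of 0.11, 0.14 and 0.08.

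The genes with the smallest p-values are given as candidates, picked once the values were known. Dhrs7, a short-chain dehydrogenase on chromosome 12 (72650356 to 72664828 in the table's annotation), had the smallest p, 0.00018 unadjusted in the edgeR fit. It was at 3.52 and 2.54 CPM at P2 and at 6.26, 6.46 and 7.24 CPM at P4, a log2 fold change of 1.11 ± 0.25 (95% interval 0.60 to 1.63). Cdon, a cell-surface co-receptor of hedgehog signalling on chromosome 9 (35421128 to 35507652), was also among the 12 leading genes on the higher side, at 203 and 244 CPM at P2 and at 315, 352 and 364 CPM at P4 (log2 fold change 0.59 ± 0.17). Sgk1, a kinase induced by glucocorticoids, was at 1.29 and 1.57 CPM at P2 and at 3.21, 4.05 and 4.66 CPM at P4 (log2 fold change 1.43 ± 0.42). On the lower side, L3hypdh, a dehydratase of hydroxyproline, was at 44.7 and 54.5 CPM at P2 and at 31.7, 30.2 and 37.1 CPM at P4 (log2 fold change −0.62 ± 0.19). Arid3b, a DNA-binding factor, was at 75.6 and 67.7 CPM at P2 and at 33.1, 37.9 and 45.7 CPM at P4 (log2 fold change −0.91 ± 0.29). Libraries of the ages that did not overlap were a condition for picking these 5 genes, and so are no result about them. The pick also required a mean of at least 1 on the log2 CPM scale and left out pseudogenes and predicted genes.

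The same interval was measured in rd1 rods, in 2 libraries of each age that share no sample with the WT ones. There too 0 of 17830 autosomal genes (0%) passed the edgeR test, with 983 (5.51%) at an unadjusted p under 0.05 and a smallest adjusted p of 0.161, while DESeq2 called 33 higher and 9 lower and limma-voom 5 and 9. Of the 318 better expressed genes with an unadjusted p under 0.05 in WT, 225 (70.8%) had a log2 fold change of the same sign in rd1. Among all 12931 better expressed genes that share was 57.7%. Of the 318, 41 had the same sign and an unadjusted p under 0.05 in both. Dhrs7 (0.84), Cdon (0.75), Sgk1 (1.41) and L3hypdh (−0.54) had rd1 log2 fold changes of the same sign as in WT, as did Arid3b (−0.44, unadjusted p = 0.184 in the edgeR fit). These are only some of the 12 leading genes in each direction, picked once the values were known. Their signs in rd1 therefore give no share over the leading genes. The edgeR test of the difference between genotypes called 0 genes (0%), with 443 (2.48%) at an unadjusted p under 0.05, and DESeq2 called 6 higher and 1 lower. The phototransduction list had a median of 0.70 in rd1 (0.13 in WT) and the cell cycle list one of −0.55 (0.09 in WT). In the rd1 libraries the phototransduction list summed to 5063 to 5699 CPM at P2 and to 7328 to 10570 CPM at P4. The cell cycle list summed to 6285 to 8826 CPM at P2 and to 4467 to 6766 CPM at P4, so its ages overlapped. These rd1 medians rest on 2 libraries of each age, and whether they differ from those of WT was not tested.

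Levels moved in the following interval in WT rods, which shares the P4 libraries. From P4 to P6, edgeR called 153 autosomal genes higher (0.858%) and 32 lower (0.179%), among them 12 of the 25 phototransduction genes, all higher, and 3 of the 66 cell cycle genes, all lower. Cnga1 was between 82.4 and 190.4 CPM at P6 (log2 fold change over P4 1.96 ± 0.35, edgeR adjusted p = 0.0085). Grm6, at most 0.635 CPM up to P4, was between 35.6 and 66.4 CPM at P6, and 9 of 22 bipolar cell genes were called higher. Other marker lists moved with this interval, and their part in it was not tested. The 17 microglia and macrophage genes tested had a median of 1.89 over P4, with 1 called. The list's 18 genes summed to between 38.3 and 154 CPM at P6, beside 23.7 to 40.1 CPM at P4. The 16 vessel and pericyte genes had a median of 0.90, with none called, and summed to between 198.5 and 536 CPM, beside 211 to 429 CPM. The counts of called genes rested on few libraries. They were 10 higher and 0 lower without the second P4 library, 9 and 0 without the third P4 library, 81 and 11 without the first P6 library, 257 and 159 without the third P6 library, and 59 and 1 without the fourth P6 library. When the change from P4 to P6 was tested against the change from P2 to P4, edgeR called 0 genes (0%), with 683 (3.83%) at an unadjusted p under 0.05, and DESeq2 called 2 higher and 1 lower. By the edgeR test the changes over the 2 intervals were therefore not shown to differ for any gene named here.

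**Figure D5:**
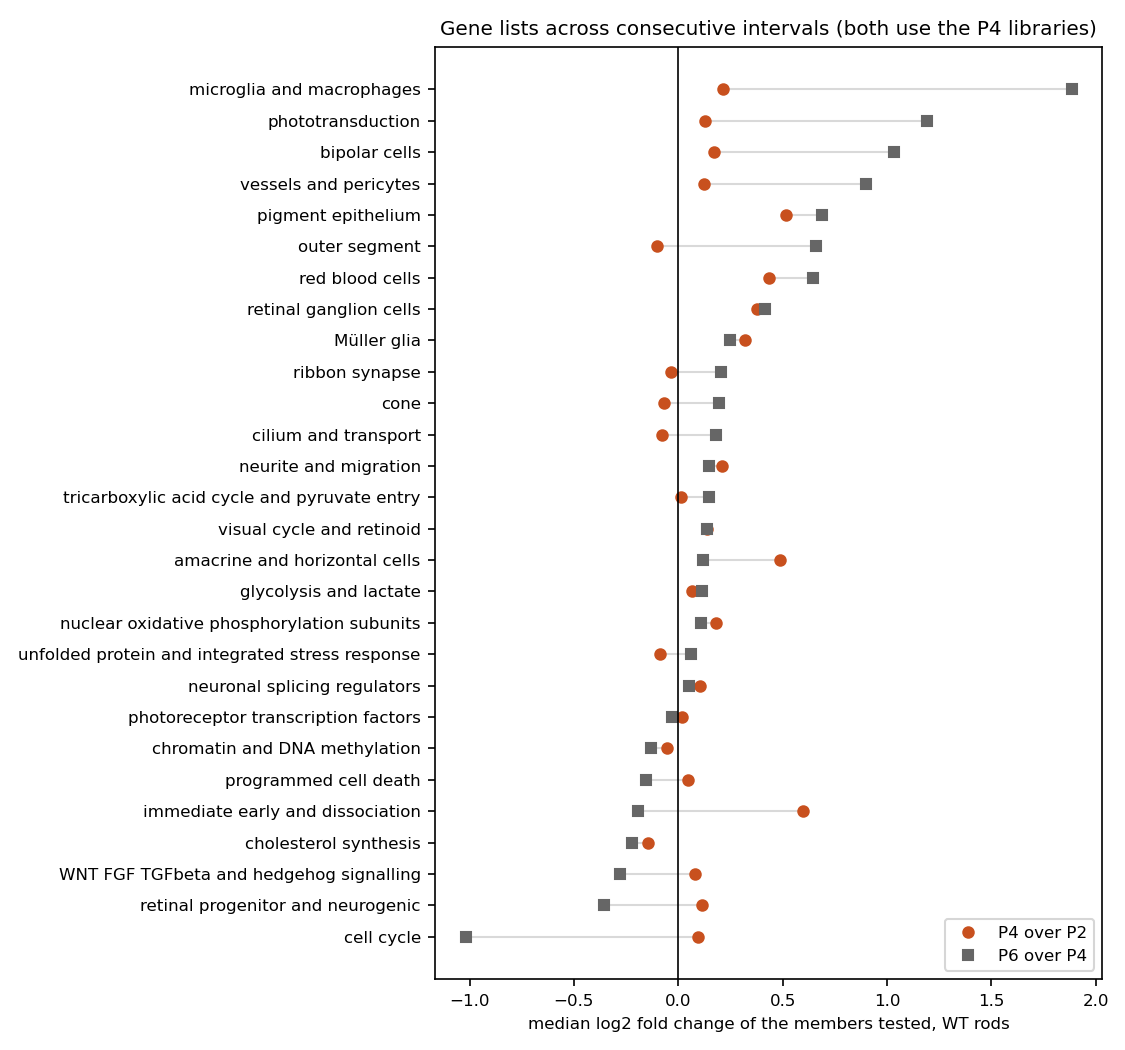
Median log2 fold change of each of the 28 gene lists in WT rods, for P4 over P2 (orange circles) and P6 over P4 (grey squares), on a linear axis. For P4 over P2 the medians lie between −0.14 (cholesterol synthesis) and 0.60 (immediate early), while for P6 over P4 they run from −1.02 for the cell cycle to 1.89 for microglia and macrophages, with phototransduction at 1.19; both differences use the same P4 libraries.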

How the data were processed

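Per the submitters' processing notes, the tools named are kallisto 0.42.4 and edgeR 3.32.1 and the build is GRCm38.p5; what each was used for, and any filter, is not given in the sources used here. The authors deposited estimated counts per gene, which are not whole numbers. The authors deposited CPM as a separate table, in which the same values are divided by each library's total. The largest difference between the deposited CPM and values recomputed from the counts was 5.8e-11. Each of the tables had 1 column that belonged to no sample listed here, which was not used. Gene positions are those of the deposited table.

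Counts were rounded, filtered with filterByExpr, scaled by TMM and fitted with edgeR 4.0.16 (quasi-likelihood, two-sided) in R 4.3.3, with 1 mean for each of the 10 groups of age and genotype. P6 rd1 replicates 1 and 3 differed by no more than sampling noise and were averaged, leaving 27 samples and 17 residual degrees of freedom. P-values were adjusted by the Benjamini-Hochberg method over 18608 genes, and autosomal genes were counted. Nothing says that replicates came from separate animals, so p-values measure the spread between libraries, which may be technical. Standard errors were derived from the F statistics. DESeq2 1.42.0, limma 3.58.1 (voom), other scalings, filters and sample sets, a replicate block and leaving out each library were alternatives, and the change from P4 to P6 and its difference from the change from P2 to P4 were added after the data were seen. The fit was tested on simulated data.

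The genes to be named were the 12 most changed in each direction and up to 4 per list among those past the threshold, which gave none, and 17 fixed genes; some further genes fixed by the rule are not reported here. The 28 gene lists and the genes were chosen with earlier results of these data known. Named genes outside the 17 fixed ones were not set by that rule, and were picked with the values known. They need not be typical of their lists. Numbers shared by P2 and P4 replicates were not taken as pairs. The deviations of the same-numbered libraries from their group means correlated by 0.0625 and 0.1245, in 2 pairs. Those of the first P2 and the third P4 library correlated by 0.083. With 2 P2 libraries the deviations of one mirror those of the other, so these values cannot decide on a pairing.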

Additional observations from a re-analysis of the deposited data

Results flagged for a closer look

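In 5 of 34 groups of 4 to 10 libraries checked over the 17 fixed genes, 1 library stood far from the others. Chance alone gives about 1 in 20 groups if the groups are independent. They are not, since all 5 cases fell in the first P6 WT library or the fifth P10 WT library, so that rate is no measure for them. All 5 were at later ages than the P2 and P4 libraries, whose groups are too small for this check. Gm42418, a gene overlapping ribosomal RNA sequence, was at 318.8 CPM in the first P6 WT library and at 11.7 to 23.6 CPM in the others. Fos was at 270 CPM in that same library, with the others at 11.3 to 40.7 CPM, so the P6 group set beside P4 contains 1 library high in both. Fos was also highest in the fifth P10 WT library, at 514.8 CPM against 26.6 to 54.3 CPM. That P10 library had the highest Pde6b (4138 CPM, others 2580 to 2843 CPM) and the lowest Mki67 (0.538 CPM, others 4.81 to 5.54 CPM).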

How the results depend on the processing

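For P4 over P2 in WT, 16 of 17 alternative settings gave 0 calls; DESeq2 gave 1 higher. The replicate block gave 0 calls there, with 625 genes at an unadjusted p under 0.05. Members past the threshold stayed at 0 in all 476 comparisons of a list with a setting. In 19 of the 476 the list median moved by more than the list's standard deviation between libraries of one age. A list whose libraries differ widely can change sign without being counted there. The cell cycle median, 0.09, was 0.524 without the first P2 library and −0.207 without the second P4 library, and neither was counted. None of 289 values of the 17 fixed genes passed the threshold, while 33 had the other sign.

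Nrl, at about 0, was 0.0141 with upper quartile scaling, 0.0176 with voom, 0.00446 with 28 libraries kept apart, 0.00578 with autosomal genes alone and 0.0762 with the replicate block. Mki67 was −0.0348 with voom and −0.0324 with the block. When libraries were left out in turn, log2 fold changes ran from −0.244 to 0.293 for Nrl, −0.109 to 0.293 for Nr2e3, −0.273 to 0.00344 for Crx, −0.652 to 0.149 for Neurod1, −0.0951 to 0.428 for Gnat1, −0.302 to 0.407 for Pde6b, −0.265 to 0.827 for Cnga1, −0.106 to 0.344 for Sag, −0.19 to 1.4 for Rcvrn, −0.226 to 0.479 for Prph2, −0.263 to 0.537 for Ccnd1, −0.361 to 0.7 for Mki67, −0.0988 to 0.654 for Hes1, −0.295 to 0.388 for Hes5 and −0.57 to 1.22 for Gm42418.

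In rd1, calls were 40 higher and 5 lower without a filter, 33 and 9 with DESeq2, 5 and 9 with voom, and 0 to 21 higher when libraries were left out (21 without the second P4 rd1 library). The genotype difference gave 13 higher without a filter, 6 higher and 1 lower with DESeq2, and 0 to 14 higher when libraries were left out (14 without the second P4 rd1 library). P6 over P4 gave 357 and 161 without a filter, 376 and 162 with DESeq2, 374 and 515 with voom, 27 and 2 with WT libraries alone, and 17 lower with the replicate block; leaving out libraries gave 9 to 257 higher and 0 to 159 lower. Its difference from P4 over P2 gave 2 higher without a filter and 2 higher and 1 lower with DESeq2. The causes were not tested. A fit left with 1 P2 library assumes that it varies like the other groups.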
